A study of Mus musculus with 15 samples.

Results

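The 10 genes described here encode enzymes that make membrane phospholipids and exchange their fatty acids: Lpcat1, Lpcat2, Lpcat3, Lpcat4, Chka, Pcyt1a, Pcyt2, Pemt, Ptdss1 and Ptdss2. They were chosen by name from the 18804 genes of a table of read counts, and all 10 were among the 14293 genes with enough counts to be tested. RNA was sequenced from white adipocytes differentiated in culture from mesenchymal stem cells of C57BL/6J mice, progenitors able to become fat cells. The question was which genes change when adipocytes are kept at 31°C, cooler than the body core. The 3 groups held 5 libraries each, and every culture was harvested 16 days after differentiation began. Day 0 cells stayed at 37°C throughout, day 1 cells were moved to 31°C on day 15, and day 12 cells were moved on day 4. Per the labels all groups received the same inducers of differentiation, namely methylisobutylxanthine, dexamethasone, insulin and troglitazone, while the study's methods name rosiglitazone in another description of the culture. Because day 12 cells matured in the cool incubator, the length of exposure and the stage at which it began cannot be told apart. The labels do not tell whether replicates are different mice or different dishes, so p-values cover the spread between these libraries, which may be technical.

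Phosphatidylcholine and phosphatidylethanolamine are the main phospholipids of animal membranes. Both can be built by the Kennedy pathway, in which a kinase adds phosphate to choline or ethanolamine, a cytidylyl transferase activates the product with CTP, and a transferase joins it to diacylglycerol. Phosphatidylethanolamine can also be methylated to phosphatidylcholine, and phosphatidylserine is made by exchanging the head group of either lipid for serine. In remodelling, known as the Lands cycle, a phospholipase removes 1 fatty acid and a lysophospholipid acyltransferase attaches another, which sets how saturated the membrane is. In adipocytes phospholipids also form the single layer that coats the lipid droplet.

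Levels are given as CPM, counts scaled to a common library total by the TMM method. Depth was 64.6 to 133 M (mega) counts per library, so a count of 3 stood for at most 0.0428 CPM. Changes are log2 fold changes with their SE from the quasi-likelihood test of edgeR, fitted to all genes and all 15 libraries with Benjamini-Hochberg adjustment. In what follows a gene rose or fell if its adjusted p was under 0.05, and it was called higher or lower if the fold change was also over 1.5. The cells carried adipocyte transcripts at a summed level of 4770 to 6540 CPM over 12 markers. Stromal progenitor markers summed to 6310 to 8080 CPM. Adipoq was at 1090 ± 41.4 CPM (SD, n = 5) at day 0, 1130 CPM at day 1 and 464 CPM at day 12. It was called lower at day 12 against day 0 (-1.24). Of the 12 adipocyte markers, 2 were called higher and 2 lower at day 1. At day 12 against day 0, 3 were called higher and 5 lower. The summed level of markers of dividing cells also moved with the groups, from a median of 60.0 CPM at day 0 to 74.5 CPM at day 1 and 193 CPM at day 12, and 8 of the 8 genes were called higher at day 12. That of 8 mesothelial markers went from 10.5 to 13.9 and 35.6 CPM, and that of 6 brown adipocyte markers from 164 to 217 and 73.7 CPM. The mesothelial rise lay in Msln (0.628, 0.870 and 29.3 CPM), while Krt8 stood at 8.44, 11.8 and 5.71 CPM. The brown adipocyte sum was nearly all Dio2 (164, 213 and 73.3 CPM). In every group Ucp1, Cidea, Cox8b and Elovl3 averaged 0.150 CPM or less. Scd1, a fatty acid desaturase, was called higher at both days, 2.35-fold and 2.83-fold, as were the cold-inducible RNA-binding proteins Cirbp (5.98-fold and 3.76-fold) and Rbm3 (3.89-fold and 6.75-fold).

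The promoters of 4 of the genes are shown because these genes carry the largest or the best known responses: Lpcat3, the most abundant, Pcyt1a, the regulated step of the choline branch, Ptdss2, which fell most, and Pemt, which rose most. Each window runs from 250 bases before to 50 bases after a RefSeq start site in GRCm38.p6. Capitals mark, on either strand, a CCAAT box (CCAAT), a GC box (GGGCGG), an E box (CACGTG) or a sterol response element (TCACNCCAC).
Lpcat3, chr6:124662854-124663153, plus strand: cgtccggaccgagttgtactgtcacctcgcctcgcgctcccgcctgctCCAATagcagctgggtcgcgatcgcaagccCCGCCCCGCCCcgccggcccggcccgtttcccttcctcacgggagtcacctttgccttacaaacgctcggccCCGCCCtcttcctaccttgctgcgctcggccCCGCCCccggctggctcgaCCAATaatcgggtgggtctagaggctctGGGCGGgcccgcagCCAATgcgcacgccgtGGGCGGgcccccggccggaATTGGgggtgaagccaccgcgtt
Pcyt1a, chr16:32430671-32430970, plus strand: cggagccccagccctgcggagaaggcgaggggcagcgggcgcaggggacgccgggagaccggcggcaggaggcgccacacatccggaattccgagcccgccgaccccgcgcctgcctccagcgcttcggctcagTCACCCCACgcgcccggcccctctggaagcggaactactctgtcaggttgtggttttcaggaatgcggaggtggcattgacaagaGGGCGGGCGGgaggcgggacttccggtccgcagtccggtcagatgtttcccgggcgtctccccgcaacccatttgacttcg
Ptdss2, chr7:141131036-141131335, plus strand: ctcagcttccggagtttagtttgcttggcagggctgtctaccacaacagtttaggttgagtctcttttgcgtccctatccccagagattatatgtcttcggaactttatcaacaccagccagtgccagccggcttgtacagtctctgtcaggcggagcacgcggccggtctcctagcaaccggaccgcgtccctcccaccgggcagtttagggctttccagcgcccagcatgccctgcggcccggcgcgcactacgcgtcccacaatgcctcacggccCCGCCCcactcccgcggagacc
Pemt, chr11:60040139-60040438, minus strand: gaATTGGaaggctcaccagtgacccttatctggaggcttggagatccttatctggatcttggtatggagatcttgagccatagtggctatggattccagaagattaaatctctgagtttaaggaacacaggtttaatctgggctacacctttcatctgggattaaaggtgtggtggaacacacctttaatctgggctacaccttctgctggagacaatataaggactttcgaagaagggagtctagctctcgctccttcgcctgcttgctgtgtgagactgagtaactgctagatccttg

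Windows were found for 8 of the 10 genes, 11 in all, since Pemt had 2 and Pcyt1a 3. A GC box stood in 8 of the 11 windows, and in 35.7% of the 32851 promoter windows of the genome. Of these 8, 2 were overlapping windows of Pcyt1a whose GC boxes lay at the same bases. A CCAAT box stood in 4 of 11, against 37.4% of all windows. The window of Lpcat3 held 6 GC boxes, some overlapping or adjoining, and 4 CCAAT boxes, whereas that of Ptdss2 held 1 GC box and no CCAAT box. The first window of Pemt held 1 CCAAT box, near its far end, and no GC box, and the second held neither. The sterol response element was matched in 2 overlapping windows of Pcyt1a at the same bases, and in 1.24% of all windows. The E box was matched in 0 of 11, against 7.15% of all. Matches describe the letters only, and binding was not measured.

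The changes of the 10 genes were smaller than those of the typical gene at both time points against day 0. Their median absolute log2 fold change was 0.20 in the first comparison and 0.23 in the second, whereas over all genes tested it was 0.30 and 0.35. At day 1, 0 of the 10 genes were called higher and 0 lower, while 7.71% of all genes were called higher and 13.4% lower. DESeq2 also called 0 each way, while 6 were above and 2 below 0 at an unadjusted p under 0.05. On adjusted p alone 6 rose and 2 fell, where 35.3% of all genes rose and 36.2% fell. At day 12 against day 0, 1 gene, Pemt, was called higher and 0 were called lower, also by DESeq2, against 13.0% and 16.2% of all genes. On adjusted p alone 7 rose and 1, Ptdss2, fell, against 39.2% and 37.4%. At day 12 against day 1, Pemt was again the 1 gene called higher and 0 were called lower, also by DESeq2, against 10.6% and 8.53%, and 4 rose and 2 fell on adjusted p alone, against 34.3% and 32.8%. The 5 values of each group did not overlap for 6 genes at day 1 and 7 at day 12 against day 0, and for 5 between day 12 and day 1, against 57.4%, 64.6% and 52.5% of all genes. The median log2 fold change of the 10 was 0.16, 0.22 and 0.05 in the 3 comparisons, beside medians of all genes within 0.012 of 0. The 3 comparisons share groups, so their counts are not independent of each other. In bulk RNA such as this, fewer cells of a type and less RNA per cell cannot be told apart.

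**Figure D1:**
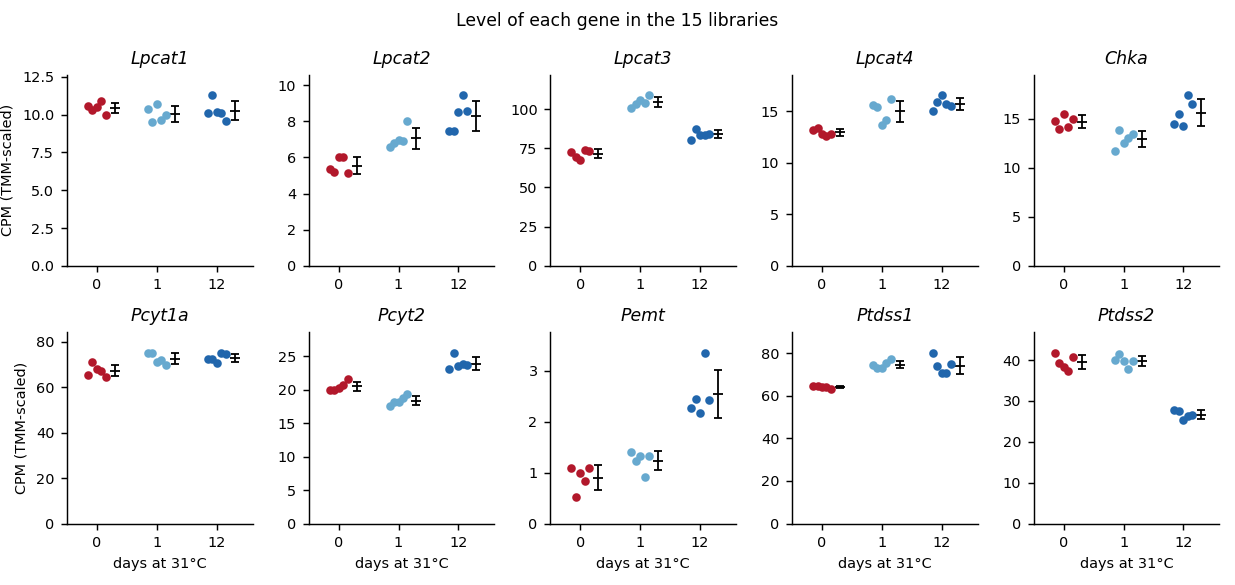
Level of each of the 10 genes (CPM, linear axes from 0) in the 15 libraries, by days at 31°C. Points are libraries and the black bars are the mean ± SD of 5. Pemt at day 12 (2.17 to 3.35 CPM) and Ptdss2 at day 12 (25.3 to 27.7 CPM) stand clear of both other groups, and Lpcat3 is highest at day 1 (mean 105 CPM).

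**Figure D2:**
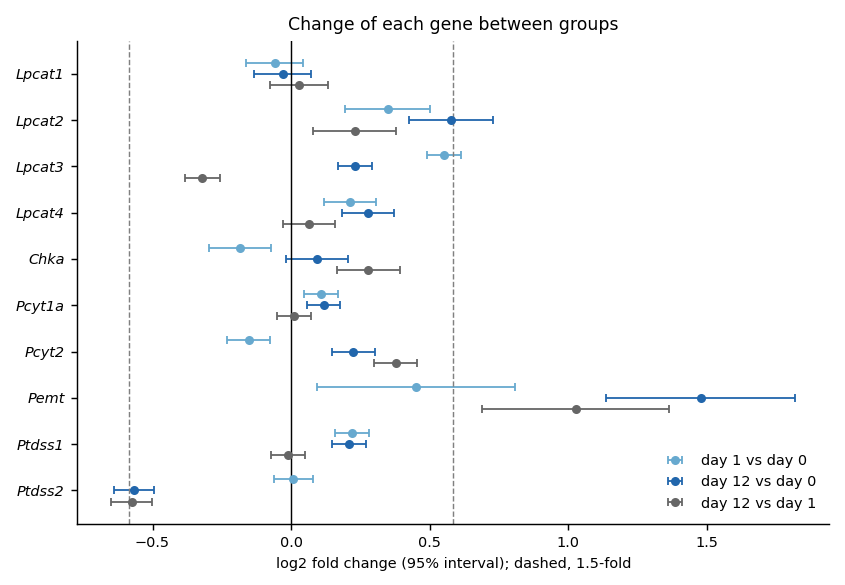
Log2 fold change of each gene in the 3 comparisons (points) with 95% intervals (bars). Dashed lines mark a fold change of 1.5, and only Pemt at day 12 lies beyond them, at 1.48 against day 0 and 1.03 against day 1.

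Counts were also set in relation to the length of each gene's exons, which allows levels of different genes to be compared. At day 0 Lpcat3 led with 21.9 ± 0.874 CPM per kb (SD, n = 5), followed by Ptdss1 at 14.9, Pcyt1a at 9.07, Ptdss2 at 7.02, Pcyt2 at 4.70, Lpcat4 at 4.60, Lpcat1 at 2.26, Lpcat2 at 1.64, Chka at 1.22 and Pemt at 0.429 CPM per kb. Of these neighbours only Pcyt2 (4.57 to 4.97) and Lpcat4 (4.47 to 4.75) had overlapping libraries. At day 12 Ptdss2, at 4.74 CPM per kb, stood below Lpcat4 (5.57) and Pcyt2 (5.50). Lpcat2 (2.20 to 2.79) then overlapped with Lpcat1 (2.07 to 2.43), and Pemt (1.03 to 1.59) overlapped with Chka (1.18 to 1.45). The order depends on the length used. With the longest transcript in place of all exons, Chka stood at place 7 at day 0. Pcyt2 then shared its day 0 level of 10.9 CPM per kb with Ptdss2. At day 12 Ptdss2 (7.36 CPM per kb by that length) stood above Lpcat4 (6.92) and still below Pcyt2 (12.7).

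Among the lysophosphatidylcholine acyltransferases, Lpcat3 responded within 1 day and Lpcat2 rose further by day 12, while Lpcat1 did not change detectably. Lpcat3, on chr6:124663027-124704418 (plus strand, GRCm38), is known to place polyunsaturated fatty acids into phosphatidylcholine. Its level was 72.8, 69.2, 67.6, 74.1 and 73.5 CPM in the day 0 libraries, 101, 103, 106, 104 and 109 CPM at day 1, and 80.4, 87.5, 83.5, 83.5 and 84.3 CPM at day 12. All day 1 libraries were above all day 12 libraries, and these were above all day 0 libraries. The log2 fold change was 0.55 ± 0.03 at day 1 (edgeR adjusted p = 1.23e-13) and 0.23 ± 0.03 at day 12 (4.53e-07), and the level fell by 0.32 ± 0.03 from day 1 to day 12 (3.11e-09). The day 1 increase, 1.47-fold, lay just under the limit for a call. The exons of Lpcat3 share 10.2% of their bases with Emg1 on the opposite strand, and whether counting used strand is not stated, so some reads could belong to either gene. Emg1 rose by 0.25 ± 0.04 at day 1 and 0.24 ± 0.04 at day 12.

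Lpcat2 (chr8:92855339-92919279, plus strand) encodes an acyltransferase that also makes platelet-activating factor. It was measured at 5.35, 5.20, 6.04, 6.02 and 5.13 CPM at day 0, 6.57, 6.79, 6.95, 6.92 and 8.01 CPM at day 1, and 7.45, 7.44, 8.53, 9.45 and 8.55 CPM at day 12. Day 0 libraries were below all others, and day 1 and day 12 overlapped through the highest day 1 library. It rose by 0.35 ± 0.08 at day 1 (edgeR adjusted p = 3.27e-04), by 0.58 ± 0.08 at day 12 against day 0 (3.13e-07) and by 0.23 ± 0.08 between the days at 31°C (0.0112). The day 12 fold change of 1.49 sat at the limit for a call and crossed it without replicate 3 or 4 of day 0 (log2 0.610 and 0.607) or replicate 1 or 2 of day 12 (0.615 and 0.613). A gene on the opposite strand, Gm45472, shares 8.47% of its exon bases. Lpcat2 is abundant in macrophages. The summed level of 8 macrophage markers was 26.6 to 33.9 CPM at day 0 and 42.4 to 48.6 CPM at day 1. At day 12 it was 30.1 to 34.5 CPM. Most of the sum was Cd14 (20.7, 33.9 and 23.8 CPM) and Cd68 (7.50, 10.3 and 5.14 CPM). Lyz2 averaged at most 1.96 CPM, Csf1r at most 0.841 CPM, and Adgre1, Ptprc, Mrc1 and Itgam 0.267 CPM or less. The part of macrophages in the result was not tested.

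Lpcat4 (chr2:112239468-112247111, plus strand), which acts mainly on lysophosphatidylethanolamine and lysophosphatidylcholine with unsaturated fatty acids, ranged over 12.6 to 13.4 CPM at day 0, 13.7 to 16.2 CPM at day 1 and 15.0 to 16.6 CPM at day 12. Both cool groups lay above day 0 and overlapped each other. It rose by 0.21 ± 0.05 at day 1 (edgeR adjusted p = 3.55e-04) and 0.28 ± 0.05 at day 12 (1.23e-05). Lpcat1 (chr13:73467197-73516422, plus strand), known for the saturated phosphatidylcholine of lung surfactant, ranged over 10.0 to 10.9, 9.51 to 10.7 and 9.59 to 11.3 CPM in the 3 groups, which overlapped throughout. Its log2 fold change was -0.06 at day 1 (95% interval -0.16 to 0.04, adjusted p = 0.318) and -0.03 at day 12 (-0.13 to 0.07, adjusted p = 0.607).

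Ratios of counts within a library do not depend on how libraries are scaled, and 7 pairs of the 10 genes were compared in this way over the 3 comparisons, 21 tests in all. Lpcat3 was 6.83 ± 0.330 times Lpcat1 in counts at day 0 (mean ± SD over 5 libraries), 10.4 ± 0.570 times at day 1 and 8.19 ± 0.386 times at day 12. The groups did not overlap, and each difference had an exact two-sided permutation p of 0.00794, the smallest that 5 against 5 libraries can give, or 0.0104 after adjustment over the 21 tests. Lpcat3 to Lpcat4 rose from 5.51 ± 0.295 to 6.99 ± 0.520 at day 1 (exact permutation, adjusted p = 0.0104) and stood at 5.33 ± 0.175 at day 12, where the difference of log2 ratios from day 0 was -0.05 ± 0.04 (SE; exact permutation, adjusted p = 0.300). Lpcat1 to Lpcat2 fell from 1.89 ± 0.111 to 1.43 ± 0.133 and 1.25 ± 0.182, both with an exact permutation adjusted p of 0.0104 against day 0, and the step between the cool groups had one of 0.120.

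As a share of the summed CPM per kb of the 4 Lpcat genes, Lpcat3 made up 72.0% ± 1.00 at day 0 (SD, n = 5), 77.0% ± 0.769 at day 1 and 71.5% ± 0.687 at day 12. Day 1 libraries (76.0 to 77.9%) lay above those of the other groups, which overlapped. Lpcat4 held 15.2%, 12.8% and 15.5%, Lpcat1 7.45%, 5.21% and 6.17%, and Lpcat2 5.40%, 4.99% and 6.81%. The rise of Lpcat2 in CPM at day 1 was not matched by a rise in its share.

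**Figure D3:**
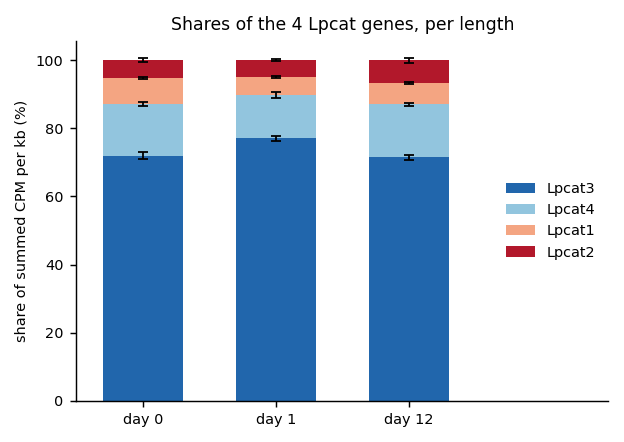
Shares of the 4 Lpcat genes in their summed CPM per kb (stacked bars of group means, axis from 0, error bars ± SD of 5 libraries for each gene). The Lpcat3 segment is 77.0% at day 1 and 72.0% and 71.5% at days 0 and 12.

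Of the Kennedy pathway enzymes among the 10, Chka, Pcyt1a and Pcyt2 moved by less than 1.5-fold, and Pcyt2 and Chka were lower at day 1 than in the other groups. Pcyt2 (chr11:120610087-120617936, minus strand) encodes CTP:phosphoethanolamine cytidylyl transferase, the regulated enzyme of the ethanolamine arm. Its level was 19.9, 19.9, 20.2, 20.7 and 21.6 CPM at day 0, 17.5, 18.2, 18.1, 18.7 and 19.3 CPM at day 1, and 23.0, 25.5, 23.5, 23.8 and 23.6 CPM at day 12. The 3 groups did not overlap, with day 1 lowest and day 12 highest. Pcyt2 fell by 0.15 ± 0.04 at day 1 (edgeR adjusted p = 0.00152), and at day 12 it was 0.22 ± 0.04 above day 0 (1.67e-05) and 0.38 ± 0.04 above day 1 (1.12e-08).

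Chka (chr19:3851773-3894369, plus strand), a choline kinase that performs the first step, was measured at 14.8, 13.9, 15.5, 14.1 and 15.0 CPM at day 0, 11.7, 13.8, 12.5, 13.0 and 13.4 CPM at day 1, and 14.5, 15.5, 14.2, 17.4 and 16.5 CPM at day 12. All day 1 libraries were below the rest. It fell by 0.19 ± 0.06 at day 1 (edgeR adjusted p = 0.00614) and rose by 0.28 ± 0.06 from day 1 to day 12 (1.69e-04), and day 12 differed from day 0 by 0.09 (95% interval -0.02 to 0.20, adjusted p = 0.138). Pcyt1a (chr16:32430921-32475070, plus strand), CTP:phosphocholine cytidylyl transferase, catalyses the rate-limiting step for phosphatidylcholine and ranged over 64.6 to 71.2, 69.7 to 74.9 and 70.8 to 75.1 CPM in the 3 groups. Its increase was 0.11 ± 0.03 at day 1 (adjusted p = 0.00345) and 0.12 ± 0.03 at day 12 (0.00146), with day 0 overlapping both. Genes on the opposite strand share 9.09% of the exon bases of Pcyt1a and 1.99% of those of Chka.

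The ratio of Pcyt1a to Pcyt2 counts moved at day 1, from 3.30 ± 0.215 to 3.95 ± 0.254 (exact permutation, adjusted p = 0.0104), and at day 12 it was 3.06 ± 0.135, lower than at day 1 (adjusted p = 0.0104, exact permutation). Day 12 against day 0 gave a difference of -0.11 ± 0.05 in log2 ratio (exact permutation, adjusted p = 0.108), which passed without replicate 5 of day 0 (-0.141, adjusted p = 0.0119, exact permutation). Chka to Pcyt1a fell from 0.218 ± 0.0155 to 0.178 ± 0.0138 at day 1 (exact permutation, adjusted p = 0.0104) and stood at 0.214 ± 0.0135 at day 12, a log2 difference of -0.03 ± 0.06 from day 0 (exact permutation, adjusted p = 0.706).

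Pemt showed the largest change among the 10 genes and was also the least abundant. It is found on chr11:59970614-60046489 (minus strand) and encodes phosphatidylethanolamine N-methyltransferase, which makes phosphatidylcholine from phosphatidylethanolamine and is best known from liver. Its level was 1.08, 0.517, 1.00, 0.830 and 1.08 CPM at day 0, 1.40, 1.22, 1.32, 0.921 and 1.32 CPM at day 1, and 2.27, 2.45, 2.17, 3.35 and 2.43 CPM at day 12. Day 12 libraries were above all others, and days 0 and 1 overlapped. These values rest on 48 to 136 counts per library at day 0, 66 to 135 at day 1 and 179 to 235 at day 12. Pemt was called higher at day 12, by 1.48 ± 0.17 against day 0, or 2.78-fold (edgeR adjusted p = 4.28e-08), and by 1.03 ± 0.17 against day 1 (1.24e-05). At day 1 it rose by 0.45 ± 0.18 (adjusted p = 0.0303), but this was lost, with adjusted p of 0.0557 to 0.0962 by edgeR, when any 1 of 5 libraries was left out: replicates 2 and 4 of day 0 and replicates 1, 3 and 5 of day 1. The value was lowest, 0.308, without replicate 2 of day 0, the lowest library, and highest, 0.536, without replicate 4 of day 1. Within the larger of the 2 series of library numbers the day 1 value was 0.601 and passed the limit for a call. Without the highest day 12 library, replicate 4, the rise from day 1 to day 12 was 0.911.

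Set against Pcyt1a, the other way to phosphatidylcholine, the count of Pemt was 0.0135 ± 0.00391 of it (SD, n = 5) in day 0 libraries, 0.0171 ± 0.00260 in day 1 libraries and 0.0347 ± 0.00570 in day 12 libraries. The day 12 ratio was above the others in every library (exact permutation, adjusted p = 0.0104 for each), and the difference between days 0 and 1 had an adjusted p of 0.184 (exact permutation). The dividing-cell markers given above were also higher at day 12 than in either other group, and their part in the rise of Pemt was not tested.

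The phosphatidylserine synthases diverged. Ptdss1, which exchanges serine for the choline of phosphatidylcholine, rose at both days, and Ptdss2, which uses phosphatidylethanolamine, fell at day 12. Ptdss1 (chr13:66932830-66998401, plus strand) was measured at 64.8, 64.5, 64.2, 63.9 and 63.4 CPM at day 0, 74.5, 73.0, 73.2, 75.4 and 77.2 CPM at day 1, and 80.2, 74.1, 70.8, 70.5 and 74.8 CPM at day 12. Day 0 libraries were below all others. The rise was 0.22 ± 0.03 at day 1 (edgeR adjusted p = 1.38e-06) and 0.21 ± 0.03 at day 12 (2.38e-06), and the cool groups differed by -0.01 (95% interval -0.07 to 0.05, adjusted p = 0.777). Genes on the opposite strand share 7.36% of its exon bases.

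Ptdss2 (chr7:141122382-141157606, plus strand) was measured at 41.8, 39.4, 38.2, 37.4 and 40.8 CPM at day 0, 40.0, 41.5, 39.7, 37.9 and 39.7 CPM at day 1, and 27.7, 27.6, 25.3, 26.2 and 26.5 CPM at day 12. Days 0 and 1 overlapped, and every day 12 library was below them. At day 1 the log2 fold change was 0.01 (95% interval -0.06 to 0.08, edgeR adjusted p = 0.854). At day 12 Ptdss2 fell by 0.57 ± 0.04 against day 0 (edgeR adjusted p = 8.83e-13), to 0.675 of its level. Against day 1 it fell by 0.58 ± 0.04 (edgeR adjusted p = 1.54e-12). Both changes lay at the limit for a call. That against day 0 crossed it without replicate 4 of day 0 (-0.586), and that against day 1 crossed it without replicate 4 of day 1 or replicate 1 or 2 of day 12 and within the larger series of library numbers (-0.596). Scaling to 4 reference genes turned both to increases (0.273 and 0.216), a scaling under which the median gene was at 0.85 and 0.80.

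In counts, Ptdss1 was 1.55, 1.64, 1.68, 1.71 and 1.55 times Ptdss2 in the day 0 libraries, 1.86, 1.76, 1.84, 1.99 and 1.95 times at day 1, and 2.90, 2.68, 2.79, 2.70 and 2.82 times at day 12. The groups did not overlap in either step. The log2 ratio was higher than at day 0 by 0.21 ± 0.04 (SE) at day 1 and by 0.77 ± 0.04 at day 12. It was higher by 0.56 ± 0.04 at day 12 than at day 1. Each difference had an adjusted p of 0.0104 from the exact permutation test of group means. With group medians the same test gave an adjusted p of 0.0625 for each, and for the other ratio differences given at 0.0104. The ratio of Ptdss1 to Ptdss2 needs no scaling, so it does not depend on the reference genes.

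**Figure D4:**
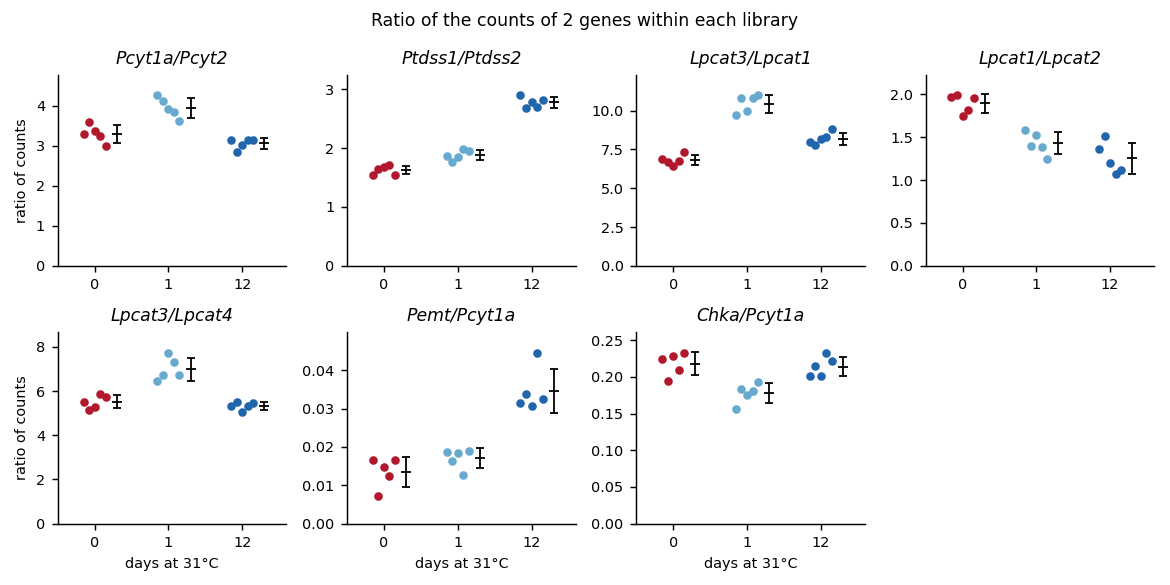
Ratio of the counts of 2 genes within each library, for the 7 pairs (linear axes from 0, points are libraries, bars are the mean ± SD of 5), by days at 31°C. Ptdss1/Ptdss2 climbs from 1.63 to 1.88 and 2.78 on average, and Pemt/Pcyt1a is highest at day 12.

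As a description over the 15 libraries, among 12132 genes averaging 1 CPM or more, the genes whose log2 CPM followed Pemt most closely were Tbc1d12, Ttf2 and Mustn1, with Pearson correlations of 0.951, 0.948 and 0.946. For Ptdss2 they were Olfml2b, Leprel2 and Ctsd, with 0.988, 0.987 and 0.986. The points share their group differences and scaling.

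Other genes of phospholipid metabolism were read from lists of the same pathways, 97 genes besides the 10, of which 92 were tested. At day 1, 10 of these were called higher and 10 lower, and at day 12 there were 17 and 11 against day 0, with a median log2 fold change of 0.03 and 0.01. These shares, 10.9% each way at day 1 and 18.5% and 12% at day 12, lie near those of all genes, 7.71% and 13.4%, and 13.0% and 16.2%, so the counts of the single lists are a description. Of the final transferases, Cept1, which joins both choline and ethanolamine to diacylglycerol, went from 45.7 ± 2.92 CPM to 26.0 ± 2.78 and 23.8 ± 0.897 CPM (SD, n = 5) and was called lower at both days, by -0.82 ± 0.06 and -0.94 ± 0.06. It shares 24.9% of its exon bases with Dennd2d and Dram2 on the opposite strand. The second choline kinase, Chkb, was called higher at both days, from 0.901 to 1.41 and 1.48 CPM, with 57.6% of its exon bases shared with other genes. Etnk2, an ethanolamine kinase, was called lower at day 12, from 0.754 to 0.335 CPM. The 5 other acyltransferases on the list lay between -0.54 (Mboat7, which acts on lysophosphatidylinositol) and 0.44 (Lpgat1) at day 12, within the limit for a call.

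Of 9 tested transporters of choline and related molecules, 4 were called higher at day 1 and 6 at day 12. The list's median log2 fold change was 0.73 and 1.16, but it falls on genes at low levels, Slc22a2 (0.335 to 0.556 CPM at day 1) and Mfsd2a (0.133 to 0.306 CPM at day 12). Slc5a7 and Mfsd2b are lower still in some groups and passed the filter through the group where they are high. Over the 5 genes averaging 1 CPM or more, a limit chosen after seeing the data, the median was 0.12 and 0.61. The most abundant of them, Slc44a2, went from 236 to 250 and 198 CPM and fell by 0.26 at day 12 (edgeR adjusted p = 9.97e-09). Slc44a1, a choline transporter, went from 102 to 199 and 156 CPM. Flvcr1, a transporter of haem and choline, went from 5.38 to 14.3 and 14.1 CPM, with 15.6% of its exon bases shared with another gene. Its relative Flvcr2 was called higher at day 12, from 0.905 to 2.20 CPM. In the cardiolipin branch Tamm41, which makes CDP-diacylglycerol in mitochondria, was called higher at both days (5.17, 8.15 and 10.3 CPM). Pgs1, which uses that product, was called higher at day 12 (42.6 to 75.4 CPM). The phosphatase Ptpmt1 was called higher at day 1 (14.5 to 29.1 CPM, with 52.3% of its exon bases shared). On adjusted p alone 5 genes of this branch rose at day 12. Another 2, Taz (39.3 to 26.6 CPM) and Cds2 (151 to 119 CPM), fell.

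Of 16 tested phospholipases and lysophospholipases, the day 1 calls were 2, both lower, and those of day 12 were 3 higher and 3 lower. Pla2g15, the lysosomal phospholipase A2, went from 99.5 to 53.6 and 44.9 CPM and was called lower at both days, as was Pla2g4b (2.95, 1.05 and 1.44 CPM, 66.5% of exon bases shared). Secreted Pla2g5 (0.552 to 2.09 CPM) and Pla2g7, which inactivates platelet-activating factor (1.36 to 3.60 CPM, 11% of exon bases shared), were called higher at day 12. Of the 8 genes that split off or modify head groups, Gdpd1 (0.994 to 4.74 CPM) was called higher at day 12 and Enpp6 at both days (0.816, 1.23 and 2.98 CPM). Enpp2, or autotaxin, was called higher at day 1 (914 to 1460 CPM) and stood below day 0 at day 12 (798 CPM, -0.20, edgeR adjusted p = 1.34e-06), and Pld1, a phospholipase D, was called lower at day 12 (31.2 to 19.2 CPM). Of 19 flippases and scramblases, which move lipids between the leaflets, 1 was called higher at day 1 and 6 lower, including Plscr2 (19.2 to 10.1 CPM) and Atp11a (145 to 84.4 CPM), and 2 each way at day 12, with Atp8b4 higher (3.51 to 6.36 CPM) and Atp10d lower (29.9 to 19.8 CPM). Among 10 regulators, 1 was called lower at day 1, and 1 was called higher and 3 lower at day 12. Nr1h3, which encodes the oxysterol receptor LXR alpha, was called lower at both days (21.1, 13.1 and 13.1 CPM). Pltp, a phospholipid transfer protein, was called lower at day 12 (144 to 57.9 CPM, 19.3% of exon bases shared with Ctsa). So was Abca1 (529 to 331 CPM), whereas Srebf2 was called higher at day 12 (68.0 to 103 CPM). Of 5 tested genes of plasmalogen synthesis, 3 rose and 1 fell on adjusted p alone at day 12, and of 3 of sphingomyelin synthesis, 1 rose and 1 fell, each by less than 1.5-fold.

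**Figure D5:**
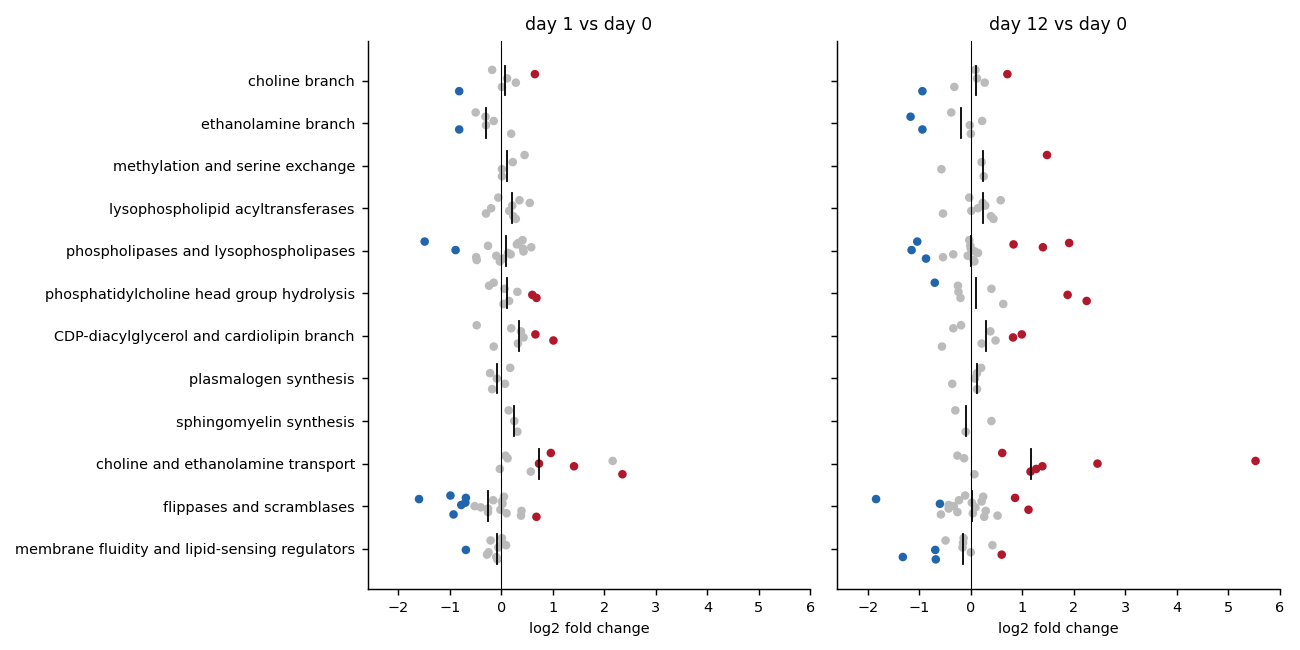
Log2 fold change of each tested gene on the 12 pathway lists, at day 1 (left) and day 12 (right) against day 0. Red points were called higher, blue points lower and grey points not called, and black bars are list medians. That of choline and ethanolamine transport (0.73 and 1.16) falls on genes averaging under 1 CPM. The lists include the 10 genes.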

How the data were processed

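RNA from 15 libraries, 5 in each of 3 groups, was sequenced and aligned by the authors to mm10 with TopHat2 2.0.13 and Bowtie2 2.2.1, per the labels, and counted with HTSeq, whether with strand is not stated. The values used were the deposited raw counts of reads per gene. The authors also deposited regularized log values and DESeq2 comparison tables, which were not used. Groups came from the labels. The 10 genes and all lists were chosen with earlier results of these data known.

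Genes were filtered with filterByExpr (minimum count 10), scaled by TMM (factors 0.946 to 1.09) and tested with edgeR 4.0.16 (quasi-likelihood) in R 4.3.3, in 1 fit without covariates. SE is the log2 fold change over the square root of F. The spread between libraries of a group was 5.25% (coefficient of variation), and no libraries were duplicates. Ratios were tested by exact two-sided permutation of group means. The fits were tested on simulated data. Genes named besides the 10 were, from each list, the 2 called genes of largest change at each day with a mean of at least 1 CPM, with Scd1, Cirbp, Rbm3 and, for Pemt and Ptdss2, the 3 genes of highest correlation. Others named were chosen after their values were seen. Gene positions are from GENCODE for GRCm38, the same assembly as mm10, and promoter windows from RefSeq. Library numbers fall into 2 series, and replicate numbers did not pair the samples. Intervals and floors cover counting error and spread between libraries only. Alternatives covered scaling, filters, DESeq2 1.42.0, covariates and leaving out each library.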

Additional observations from a re-analysis of the deposited data

Results flagged for a closer look

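Of 51 groups of 5 values (levels and ratios), 3 held a library far from the others by Dixon's test, and chance gives about 1 in 20. Lpcat2 at day 1 was highest in replicate 5, at 8.01 CPM. Pemt at day 12 was highest in replicate 4, at 3.35 CPM, and the ratio of Pemt to Pcyt1a counts in that library was 0.0446. The response of Pemt also differed between the days at 31°C, by 1.03 on the log2 scale (edgeR adjusted p = 1.24e-05), higher at day 12 in 5 of 5 libraries than in any day 1 library.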

How the results depend on the processing

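Of the results run, Pemt at day 12 against day 0 was called higher in every alternative that tested it, and a filter at a mean level of 10 CPM removed it. Of the 10 genes, those called higher at day 1 numbered 1 with reference genes and 1 within the larger series of library numbers, and 6 on adjusted p alone, with 2 lower. At day 12 against day 0, 2 were higher with total counts, 9 with reference genes, 0 with the 10 CPM filter and 7 on adjusted p alone, and 1 was lower with that filter and on adjusted p alone. At day 12 against day 1, 8 were higher with reference genes, 0 with the filter and 4 on adjusted p alone, and 2 were lower on adjusted p alone and 1 within the larger series. Leaving out 1 library gave 1 to 2 higher and 0 to 1 lower at day 12 against day 0, and 1 higher and 0 to 1 lower against day 1.

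Of all genes, the 10 CPM filter left 419 higher and 745 lower at day 1, 637 and 1051 at day 12, and 413 and 485 at day 12 against day 1, since fewer genes were tested. Adjusted p alone passed 5049 and 5177, 5608 and 5342, and 4908 and 4690. Total counts gave 2982 higher at day 12, and the reference genes (Hprt, Tbp, Gapdh, B2m) gave 9713 higher and 643 lower, and 10196 and 255 against day 1. Total counts moved the median of all genes to 0.21 and 0.18 in these comparisons, from 0.012 and 0.009 with TMM. Of called genes, 35.9% and 27.3% were then lower, against 55.6% and 44.7% with TMM and 6.21% and 2.44% with the reference genes. The cause was not tested.

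Changes of sign were seen with reference genes for Lpcat1 (0.809) at day 12 against day 0 and for Lpcat3 (0.469) and Ptdss1 (0.781) against day 1, besides Ptdss2 (0.273 and 0.216), all below the shift of the median. Total counts turned Lpcat1 at day 12 (0.163) and Ptdss1 against day 1 (0.162), also below it. The other changes of sign were of values near 0. Ptdss2 at day 1 was -0.038 with the filter and -0.011 to 0.030 when 1 library was left out. Against day 1, Ptdss1 was 0.015 with the filter and 0.007 within the larger series, Pcyt1a was -0.020 within it, and leaving out 1 library gave -0.006 to 0.053 for Lpcat1, -0.004 to 0.022 for Pcyt1a and -0.041 to 0.007 for Ptdss1.

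With group medians in place of means, 16 ratio differences had an exact permutation adjusted p of 0.0625, with day 1, day 12 and day 12 against day 1 given in turn where they apply: Ptdss1/Ptdss2 0.186, 0.769 and 0.583, Lpcat3/Lpcat1 0.666, 0.270 and -0.396, Lpcat1/Lpcat2 -0.480 and -0.705, Pcyt1a/Pcyt2 0.249 and -0.322 (day 1 and day 12 against day 1), Lpcat3/Lpcat4 0.289 and -0.336 (likewise), Chka/Pcyt1a -0.317 and 0.248 (likewise), and Pemt/Pcyt1a 1.143 and 0.816 (day 12 against each). Leaving out 1 library gave -0.141 to -0.075 for Pcyt1a/Pcyt2 at day 12 against day 0 and -0.272 to -0.146 for Lpcat1/Lpcat2 between the cool groups, which passed without replicate 2 of day 12 (adjusted p = 0.0490, exact permutation).

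The replicate numbers did not pair the samples (correlations of same-numbered libraries -0.03 to 0.04), and with the replicate block Pemt was 1.496 at day 12 and no call of the 10 genes changed.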
